A study of Mus musculus with 18 samples.

Results

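The genes described here are 34 enzymes and enzyme subunits of central carbon metabolism in mouse substantia nigra, a midbrain nucleus rich in dopaminergic neurons. They were taken by name from a list of symbols, by a rule that uses no measured value, though the list was drawn up with earlier results of these data known. The list has 16 genes of glycolysis and lactate dehydrogenase, 6 genes that bring pyruvate into the mitochondrial cycle (the pyruvate dehydrogenase complex and pyruvate carboxylase), and 12 genes of the tricarboxylic acid (TCA) cycle. All 34 were found among the 55269 genes of the table and passed the filter on low values, and the lowest of them, Suclg2, had a mean of 1624 normalised reads over the 18 libraries.

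Poly-A RNA was sequenced from the substantia nigra of 3-month-old mice in 3 groups with 6 mice each, per the series text. The intact group is wild type, and the labels name no virus, sham operation or other treatment for it. The other two groups had received an adeno-associated virus (AAV) about a month before the tissue was taken, to overexpress a fluorescent reporter (GFP) in AAV-GFP mice or SIRT3, an NAD-dependent deacetylase of mitochondria, in AAV-SIRT3 mice. Serotype, promoter, dose and injection site of the virus, and the strain and sex of the mice, are not given in the sources used here. AAV-SIRT3 against AAV-GFP compares viruses that differ in cargo, and whether they were alike in all else cannot be told here. Both virus groups against intact compare virus, cargo and delivery together.

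Each library had between 47182420 and 64728400 reads assigned to genes. Sirt3 itself, looked at as a check of the labels, had a mean of 1937 ± 79.4 normalised reads in the AAV-SIRT3 group, 1775 ± 92.4 with AAV-GFP and 1824 ± 66.3 when intact (SD, n = 6). Its log2 difference between AAV-SIRT3 and AAV-GFP was 0.13 (SE 0.042), with a limma adjusted p of 0.183 and an exact two-sided permutation p of 0.0152, where 0.00216 is the smallest that 6 against 6 libraries allow. Between AAV-SIRT3 and intact it was 0.09, with a limma adjusted p of 0.148 and an exact permutation p of 0.0325. That difference was -0.00474 once the trend with transcript length and GC content was removed from each library. Neither difference passed by limma with adjustment over all genes, though both permutation p, for this gene alone, were under 0.05. The level of Sirt3 RNA therefore does not settle the overexpression label. The tissue label was checked on dopaminergic markers: Th had a mean of 5729 ± 761 normalised reads when intact, 4711 ± 659 with AAV-GFP and 5756 ± 186 with AAV-SIRT3. Of 10 such markers, 2 (Slc6a3 and Ret) fell in AAV-GFP against intact by limma and 0 passed in the other comparisons. Their summed level was 47607 to 63132 in intact libraries, 41307 to 52698 with AAV-GFP and 47039 to 55942 with AAV-SIRT3. Across all 19442 genes tested, 7 rose and 15 fell at an adjusted p of 0.05 in AAV-SIRT3 against AAV-GFP, 160 rose and 198 fell in AAV-GFP against intact, and 2206 rose and 2008 fell in AAV-SIRT3 against intact. Any pair of these comparisons shares 1 group of libraries, so their values are given side by side only. In this bulk tissue, a change in the share of a cell type and a change of RNA per cell cannot be told apart.

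Glycolysis splits glucose to pyruvate in the cytosol, and lactate dehydrogenase interconverts pyruvate and lactate. The pyruvate dehydrogenase complex turns pyruvate into acetyl-CoA inside the mitochondrion, where the TCA cycle oxidises it and passes electrons to the respiratory chain. In brain, glycolytic isoforms are divided between cell types: Aldoc is a classical astrocyte gene and Eno2 a classical neuronal gene, and lactate dehydrogenase tetramers are built from the A subunit (Ldha) and the B subunit (Ldhb).

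The sequences just upstream of 4 members are shown to set genes that rose in AAV-SIRT3 against intact (Ldhb, Mdh1 and Idh3g) beside Ldha, the partner subunit of Ldhb, which did not pass the test. They were picked after the values were seen. Each line gives 200 bases directly before a transcription start annotated by RefSeq, 5′ to 3′ on the gene's strand (GRCm38.p6). The Mdh1 and Ldha windows lie inside the wider gene spans of GENCODE M21, which start further upstream. Capitals mark matches, on either strand, to any of 4 motifs: the hypoxia response core ACGTG, the ETS core CCGGAAG, the NRF1 motif and the ERR half-site AAGGTCA. A palindrome such as CACGTG holds ACGTG on both strands, and its overlapping matches are capitalised as 1 block.
Ldhb, chr6:142507958-142508157, minus strand: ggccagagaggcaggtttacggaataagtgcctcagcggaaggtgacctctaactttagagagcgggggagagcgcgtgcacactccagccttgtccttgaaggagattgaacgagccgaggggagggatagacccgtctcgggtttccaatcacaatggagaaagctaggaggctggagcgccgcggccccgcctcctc
Ldha, chr7:46845604-46845803, plus strand: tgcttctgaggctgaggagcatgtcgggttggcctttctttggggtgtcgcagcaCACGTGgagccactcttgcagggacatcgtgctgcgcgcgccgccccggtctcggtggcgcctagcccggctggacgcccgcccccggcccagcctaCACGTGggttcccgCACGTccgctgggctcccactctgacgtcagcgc
Mdh1, chr11:21571935-21572134, minus strand: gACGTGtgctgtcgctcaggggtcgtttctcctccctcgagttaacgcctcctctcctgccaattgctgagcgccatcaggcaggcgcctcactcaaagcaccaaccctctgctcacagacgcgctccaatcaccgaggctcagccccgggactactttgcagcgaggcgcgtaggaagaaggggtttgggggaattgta
Idh3g, chrX:73786898-73787097, minus strand: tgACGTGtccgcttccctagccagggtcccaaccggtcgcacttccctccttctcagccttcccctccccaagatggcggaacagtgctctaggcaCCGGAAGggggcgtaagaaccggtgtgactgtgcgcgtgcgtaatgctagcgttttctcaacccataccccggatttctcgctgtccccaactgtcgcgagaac
In the windows shown, Ldha had more matches to ACGTG than the other members, and Ldhb had no match to any of the motifs. A second RefSeq start of Ldha, with its window at 46846882 to 46847081 of chromosome 7, had 0 matches to ACGTG and 1 to the NRF1 motif. The contrast of Ldha with Ldhb in ACGTG matches therefore depends on the start shown. Bases a little past the start were found in the principal GENCODE transcript for Ldhb, Mdh1 and Idh3g, but for neither start of Ldha.

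Over the longer windows of 300 bases in the RefSeq table, 33 of the 34 members had an entry (Idh3a had none). ACGTG was in 14 of the 33 (42.4%), against 21.8% of the 27025 genes with an entry, and 9 of those 14 were among the 16 glycolytic members. The NRF1 motif was in 5 members (15.2%) against 5.19% of genes, CCGGAAG in 4 (12.1%) against 9.93%, and AAGGTCA in 3 (9.09%) against 5.38%. A gene was counted where the window of any of its annotated starts had a match, so a gene with more starts had more chances. Members and all genes were not matched for the number of starts. These are descriptions of letters in such windows, with no test.

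The members together took 1.35 to 1.5% of the reads of an intact library, against 1.35 to 1.57% with AAV-GFP and 1.45 to 1.57% with AAV-SIRT3. Per kilobase of the principal transcript, Gapdh, which carries out the first oxidation of glycolysis, stood highest in intact tissue at 55523 normalised reads. It was followed by the aldolase Aldoa (41903), the pyruvate kinase Pkm (28676), Ldhb (23971), Aldoc (23692) and the cytosolic malate dehydrogenase Mdh1 (21159). The lower end on the same scale was held by Pdhx, the subunit that anchors E3 to the dehydrogenase complex (1018), and by Suclg2, the GTP-specific subunit of succinyl-CoA ligase (468). Mean levels of Ldhb and Aldoc differed by less than the spread of either gene over the 6 intact libraries.

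In AAV-SIRT3 against intact, 11 of the 34 members rose and 0 fell, by limma with Benjamini-Hochberg adjustment over all genes tested. That is 32.4% of the members, against 11.3% of all genes that rose and 10.3% that fell, and against 21.2% that rose among the 6688 genes with a mean at least that of the lowest member. The 11 were 6 of 16 glycolytic genes (Aldoa, Aldoc, Tpi1, Gapdh, Eno1, Ldhb), 1 of 6 pyruvate genes (Pdhb) and 4 of 12 TCA genes (Idh3g, Suclg1, Mdh1, Mdh2). Their rises were small, from 0.12 on the log2 scale (8.83%) for Pdhb to 0.27 for Ldhb. The median log2 difference was 0.09 for glycolysis, 0.06 for the pyruvate genes and 0.09 for the TCA cycle, against -0.005 over all genes tested and 0.02 over the genes with a mean at least that of the lowest member.

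Transcript length moved with these calls. Among genes expressed at least as highly as the lowest member, 61.5% of those with a transcript under 2000 bases rose in AAV-SIRT3 against intact, and 12.1% of the longer ones did. The members divided in much the same way, with 8 of 12 shorter and 3 of 22 longer members past the test, so within a length class their shares lay near the background. The 2000-base limit was set after the values were seen.

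**Figure D1:**
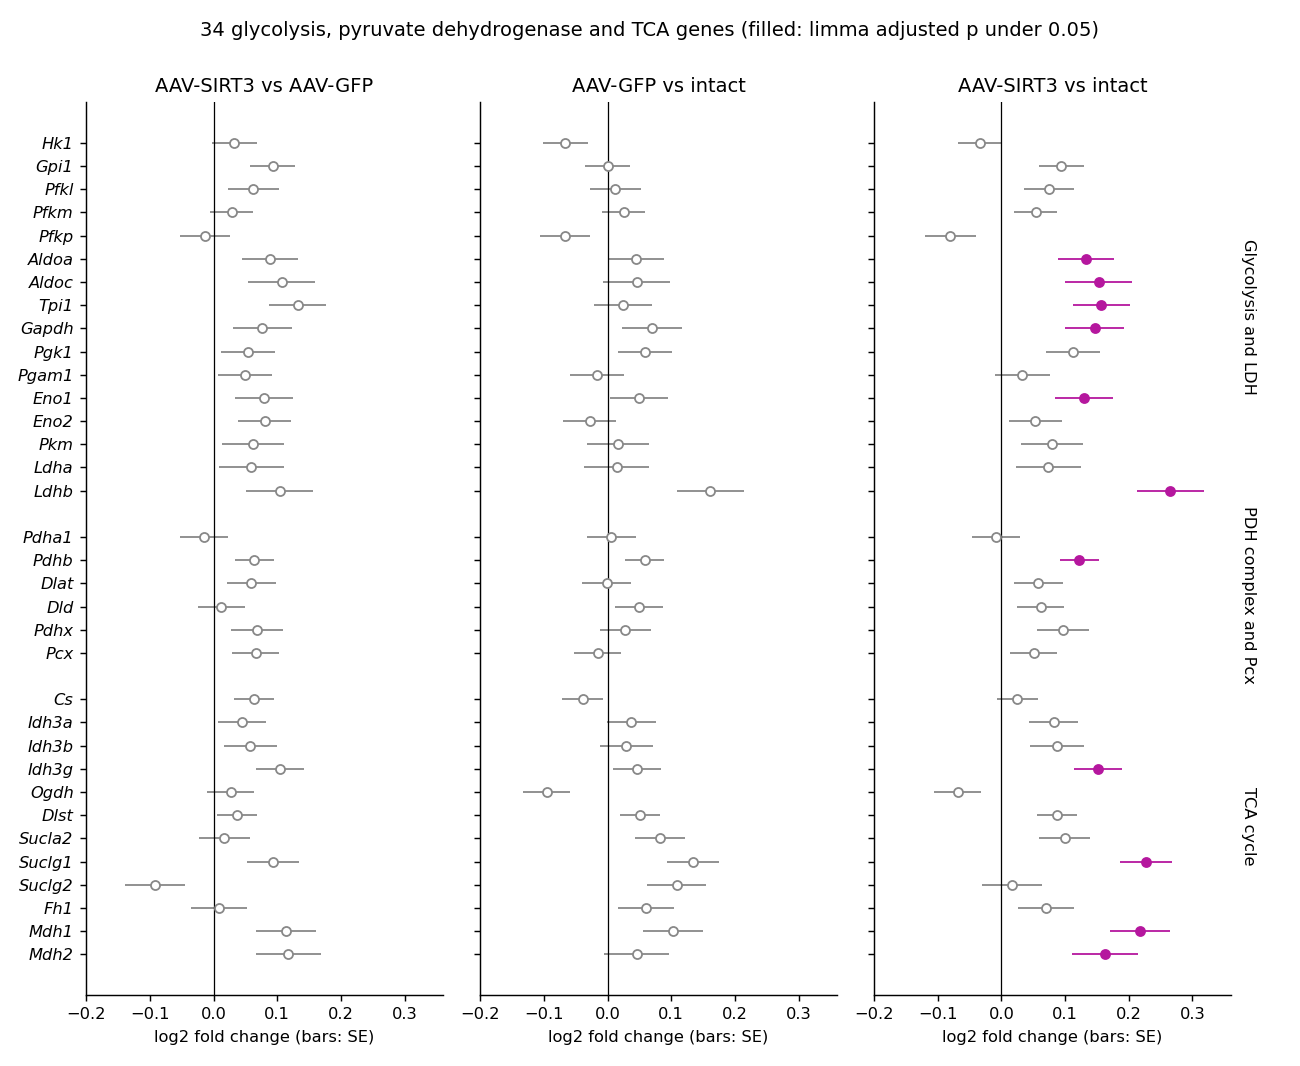
Log2 fold changes of the 34 members in the 3 comparisons, with bars for the standard error of the limma fit and filled points for members past an adjusted p of 0.05. In AAV-SIRT3 against intact 11 points are filled, all to the right of 0, and none is filled in the other 2 panels.

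Ldhb, the lactate dehydrogenase subunit that prevails in oxidative tissues, had the largest difference of the 34 against intact. Its gene spans 142490249 to 142507957 of chromosome 6, minus strand (GRCm38, GENCODE M21). Intact libraries ran from 28778 to 35398 normalised reads with a median of 30101, AAV-GFP from 32101 to 38346 with a median of 34895, and AAV-SIRT3 from 34855 to 40276 with a median of 37933. AAV-SIRT3 libraries were the higher ones in 35 of the 36 pairs of an AAV-SIRT3 and an intact library, and the sole overlap came from intact replicate 1. The log2 difference was 0.27 (SE 0.052, limma adjusted p = 0.00185). Between AAV-GFP and intact it was 0.16 (adjusted p = 0.0965), and between AAV-SIRT3 and AAV-GFP 0.10 (adjusted p = 0.346), so neither of these passed.

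Ldha, the other subunit, ran from 6645 to 7789 in intact and from 6838 to 8242 in AAV-SIRT3 libraries, with medians of 7117 and 7598. These ranges overlapped widely, and its log2 difference of 0.07 (SE 0.051) had an adjusted p of 0.323. Within a library, the log2 ratio of Ldha to Ldhb was -2.41 to -1.89 in intact, -2.39 to -2.14 in AAV-GFP and -2.41 to -2.20 in AAV-SIRT3. The intact libraries were the most spread, and intact replicate 1 had the lowest ratio of all 18 libraries.

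Triose-phosphate isomerase, Tpi1 (chromosome 6, 124810586 to 124814296, minus strand), interconverts the triose phosphates that aldolase makes. It ran from 27947 to 31409 in intact libraries (median 28804), from 27900 to 32690 in AAV-GFP (29905) and from 30205 to 35271 in AAV-SIRT3 (32932). AAV-SIRT3 was higher in 34 of 36 pairs against intact, with a log2 difference of 0.16 (SE 0.045, limma adjusted p = 0.0167). Tpi1 also had the largest difference of the members against AAV-GFP, 0.13 (SE 0.045, adjusted p = 0.189), which passed only when AAV-GFP replicate 2 was left out (0.16, adjusted p = 0.0433).

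Gapdh (chromosome 6, 125161715 to 125166467, minus strand) ran from 74107 to 89712 in intact libraries, from 76647 to 88365 in AAV-GFP and from 83731 to 90184 in AAV-SIRT3, with medians of 76079, 82078 and 87368. Intact replicate 1 stood inside the AAV-SIRT3 range, and the other intact libraries lay below it. The log2 difference between AAV-SIRT3 and intact was 0.15 (SE 0.047, limma adjusted p = 0.0293).

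The aldolases split fructose 1,6-bisphosphate into the triose phosphates. Aldoa (chromosome 7, 126795234 to 126800751, minus strand) had an intact median of 63025, against 64748 with AAV-GFP and 69040 with AAV-SIRT3, within ranges of 60641 to 66254, 60863 to 69846 and 63163 to 75507. Aldoc (chromosome 11, 78322968 to 78327781, plus strand) had medians of 65585, 66441 and 73752, within ranges of 59829 to 74832, 63416 to 76070 and 69407 to 75041. Both rose in AAV-SIRT3 against intact, Aldoa by 0.13 (limma adjusted p = 0.0350) and Aldoc by 0.15 (adjusted p = 0.0418) on the log2 scale, and both kept an overlap between the groups. Their ratio within a library did not separate the groups: log2 Aldoa over Aldoc was -0.18 to 0.03 in intact and -0.21 to 0.02 in AAV-SIRT3 libraries.

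Enolase makes phosphoenolpyruvate, the substrate of pyruvate kinase. Eno1 (chromosome 4, 150236721 to 150248879, plus strand) ran from 37333 to 42464 in intact (median 38872), 37547 to 44538 in AAV-GFP (41417) and 40909 to 45602 in AAV-SIRT3 (43188). It rose by 0.13 on the log2 scale against intact (SE 0.046, limma adjusted p = 0.0463), the weakest of the 11 calls. The neuronal isoform Eno2 differed by 0.05 (adjusted p = 0.389). The log2 ratio of Eno1 to Eno2 lay between -0.39 and -0.34 in the intact libraries and between -0.35 and -0.21 in AAV-SIRT3, a wider range that overlapped the intact one.

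**Figure D2:**
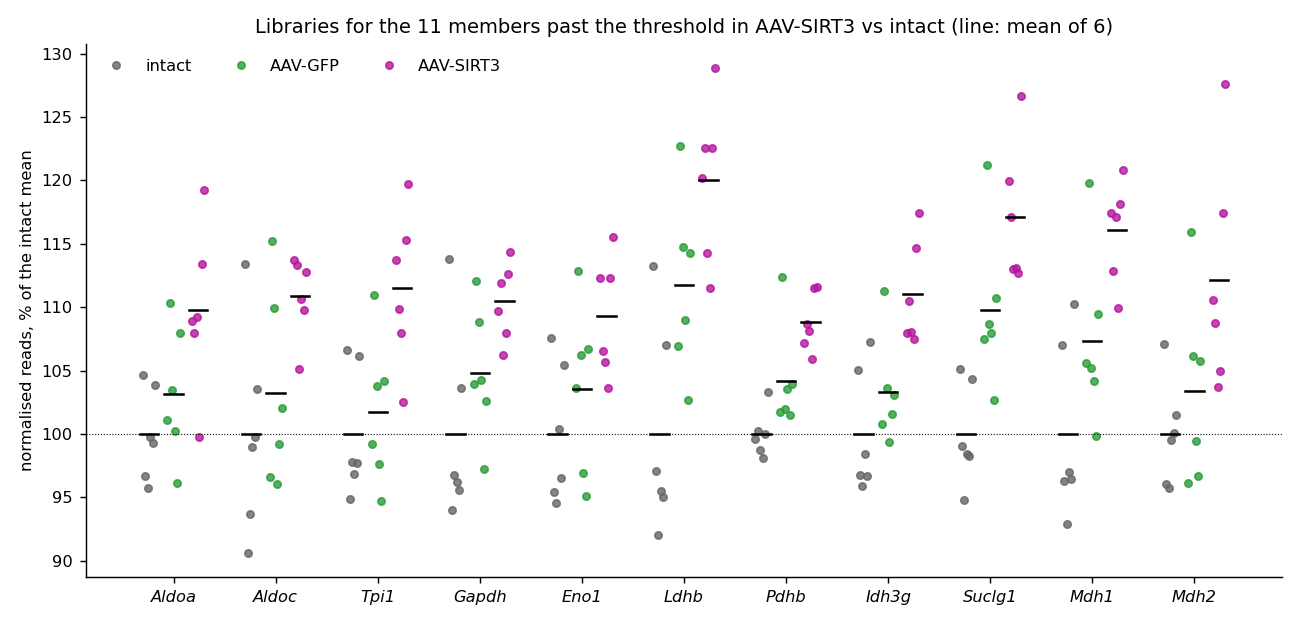
Normalised reads of each library for the 11 members that rose in AAV-SIRT3 against intact, as a percentage of the intact mean (vertical axis), with a line at the mean of 6 libraries. AAV-SIRT3 lies wholly above intact for Pdhb, Idh3g and Suclg1. Intact replicate 1 reaches the AAV-SIRT3 range in Ldhb, Gapdh, Aldoa, Aldoc, Tpi1, Eno1 and Mdh2, and intact replicate 6 in Aldoa, Tpi1, Eno1 and Mdh1.

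The other 10 glycolytic members did not pass in any comparison by the limma model of all libraries. Phosphoglycerate kinase Pgk1 (0.11, limma adjusted p = 0.0614) and glucose-6-phosphate isomerase Gpi1 (0.09, adjusted p = 0.0618) came closest in AAV-SIRT3 against intact. Pyruvate kinase Pkm was at 0.08, the liver-type phosphofructokinase Pfkl at 0.07, the muscle-type Pfkm at 0.05 and phosphoglycerate mutase Pgam1 at 0.03. Hexokinase Hk1, which commits glucose to the cell, was at -0.03, and the platelet-type phosphofructokinase Pfkp at -0.08 (adjusted p = 0.152).

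Phosphofructokinase is the main control point of glycolysis and forms tetramers of these isoforms. Pfkp ran from 16667 to 19299 in intact libraries (median 17268) and from 15463 to 17624 in AAV-SIRT3 (16962), and Pfkm from 23123 to 24712 (23617) and from 24058 to 25327 (24690). Neither gene's groups separated alone. Their log2 ratio within a library did: Pfkm over Pfkp was 0.30 to 0.48 in intact, 0.45 to 0.62 in AAV-GFP and 0.51 to 0.64 in AAV-SIRT3 libraries, with no overlap between AAV-SIRT3 and intact. This was 1 of 6 ratios formed, it was not tested, and Pfkp has the longest transcript of the 34 members (4145 bases against 2879 for Pfkm).

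**Figure D3:**
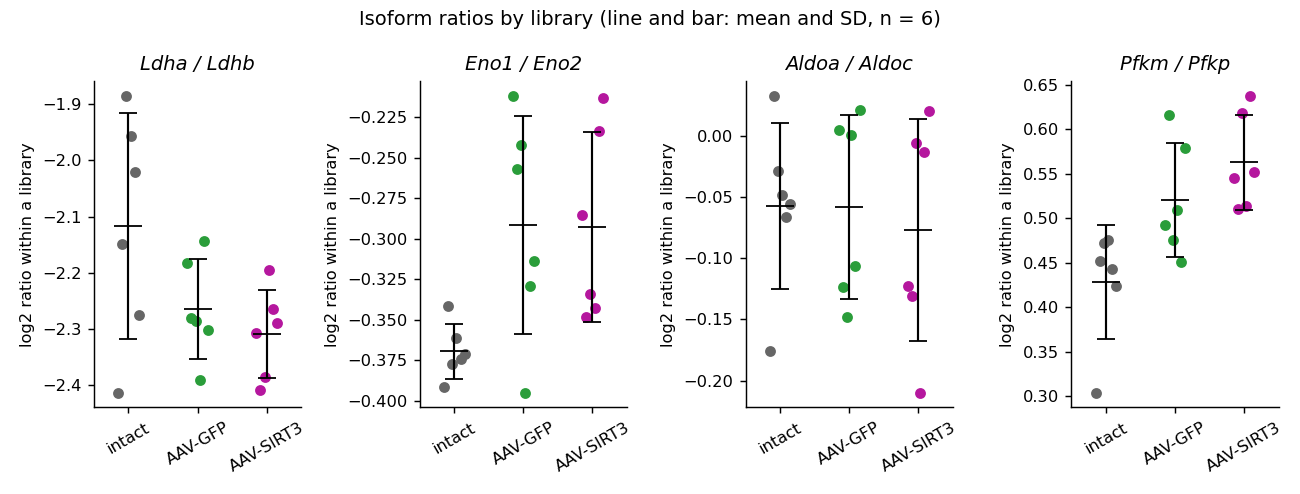
Log2 ratio of 2 isoforms within each library for Ldha/Ldhb, Eno1/Eno2, Aldoa/Aldoc and Pfkm/Pfkp, by group, with the mean and SD of 6 libraries. AAV-SIRT3 lies wholly above intact for Pfkm/Pfkp alone, at 0.51 to 0.64 against 0.30 to 0.48.

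Of the pyruvate genes, Pdhb (chromosome 14, 8165996 to 8173025, minus strand), the E1 beta subunit of pyruvate dehydrogenase, rose. Its intact libraries ran from 6988 to 7357 (median 7107), AAV-GFP from 7231 to 8007 (7317) and AAV-SIRT3 from 7544 to 7947 (7721). All 6 AAV-SIRT3 libraries lay above all 6 intact ones. The log2 difference was 0.12 (SE 0.031, limma adjusted p = 0.00801). Without overlap in this direction were 3 of the 34 members (Pdhb, Idh3g and Suclg1), against 5.01% of all genes tested. Their transcripts are short, at 1513, 1331 and 1519 bases, and no such share was computed for genes as short or as highly expressed.

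The remaining subunits did not pass. The E1 alpha subunit Pdha1, which pairs with Pdhb and carries the regulatory phosphorylation sites, was at -0.009 (SE 0.038, limma adjusted p = 0.897), with intact libraries from 9254 to 10506 and AAV-SIRT3 libraries from 9092 to 10184. Whether Pdhb and Pdha1 differed from each other in response was not tested. The E2 subunit Dlat was at 0.06, the shared E3 subunit Dld at 0.06, the E3-binding protein Pdhx at 0.10 (adjusted p = 0.0925), and pyruvate carboxylase Pcx, which makes oxaloacetate from pyruvate, at 0.05.

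Among the TCA genes, Suclg1, the common alpha subunit of succinyl-CoA ligase, had the lowest adjusted p of all 34 members. Its gene spans 73248382 to 73276911 of chromosome 6, plus strand. Intact libraries ran from 5635 to 6253 (median 5870), AAV-GFP from 6105 to 7208 (6441) and AAV-SIRT3 from 6701 to 7532 (6845). No AAV-SIRT3 library reached down to the intact range, and AAV-GFP lay across both. The log2 difference was 0.23 (SE 0.041, limma adjusted p = 0.00117) against intact and 0.09 (adjusted p = 0.285) against AAV-GFP.

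The beta subunits that pair with Suclg1 did not pass the test. Sucla2, the ATP-specific one, was at 0.10 (limma adjusted p = 0.0778) in AAV-SIRT3 against intact, and Suclg2, the GTP-specific one, at 0.02 (adjusted p = 0.833). Suclg2 was highest in AAV-GFP, at 1623 to 1907 normalised reads, against 1461 to 1676 in intact and 1533 to 1661 in AAV-SIRT3. Its log2 difference between AAV-SIRT3 and AAV-GFP was -0.09 (adjusted p = 0.349), the most negative of the members in that comparison.

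Malate dehydrogenase closes the TCA cycle in the mitochondrion (Mdh2) and works in the cytosol in the malate-aspartate shuttle (Mdh1). Mdh1 (chromosome 11, 21556787 to 21572367, minus strand) ran from 41718 to 49503 in intact (median 43438), 44836 to 53800 in AAV-GFP (47325) and 49376 to 54245 in AAV-SIRT3 (52663). AAV-SIRT3 was higher in 35 of 36 pairs against intact, with a log2 difference of 0.22 (SE 0.047, limma adjusted p = 0.00332). Mdh2 (chromosome 5, 135778480 to 135790398, plus strand) ran from 15650 to 17515 in intact (16316), 15719 to 18959 in AAV-GFP (16775) and 16950 to 20864 in AAV-SIRT3 (17934). It rose by 0.16 (SE 0.051, adjusted p = 0.0279), and AAV-SIRT3 replicate 6 stood highest.

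The NAD-linked isocitrate dehydrogenase is built from 3 kinds of subunit. Idh3g (chromosome X, 73778963 to 73786897, minus strand), a regulatory one, ran from 7288 to 8154 in intact (median 7418), 7552 to 8459 in AAV-GFP (7780) and 8173 to 8926 in AAV-SIRT3 (8307). It rose without overlap of the groups by 0.15 on the log2 scale (SE 0.038, limma adjusted p = 0.00740). The catalytic Idh3a (0.08, adjusted p = 0.127) and the regulatory Idh3b (0.09, adjusted p = 0.142) did not pass.

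Citrate synthase Cs, the entry to the cycle, was at 0.02 (limma adjusted p = 0.621), and fumarase Fh1 at 0.07. In the 2-oxoglutarate dehydrogenase complex, the E2 subunit Dlst missed the threshold at 0.09 (adjusted p = 0.0520 by limma), and the E1 subunit Ogdh was at -0.07 (adjusted p = 0.193). Ogdh was the member with the largest negative difference in AAV-GFP against intact, -0.10 (adjusted p = 0.160). Its AAV-GFP libraries ran from 18129 to 19108 with a median of 18403 and its intact libraries from 19000 to 21600 with a median of 19590, so the groups overlapped narrowly.

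AAV-GFP against intact gave 0 members past the threshold by limma in either direction, where 0.823% of all genes rose, 1.02% fell, and 1.11% rose among genes at least as high as the lowest member. At an unadjusted p under 0.05 there were 5 members (14.7%), against 19.1% of all genes and 27.1% of those at least as high as the lowest member. Of the members, edgeR called 0 and DESeq2 called 1, Suclg1 (log2 0.13, adjusted p = 0.0395 by DESeq2 and 0.0818 by limma). None of the members had groups without overlap in the upward direction, against 0.874% of all genes. Of the 34 values 26 (76.5%) were above 0, against 50.2% of all genes and 52.2% of those at least as high, and the median was 0.03. Ldhb passed only without intact replicate 1 (0.20, adjusted p = 0.0451).

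AAV-SIRT3 against AAV-GFP, the comparison between the virus groups, also gave 0 members past the threshold by limma, and 0 by edgeR and by DESeq2. At an unadjusted p under 0.05 there were 6 (17.6%), near the 15.2% of all genes and the 20.5% of genes at least as high as the lowest member. Over all genes, 0.036% rose and 0.0772% fell, 0.0598% rose among genes at least as high as the lowest member, and 0.37% had groups without overlap in the upward direction, against 0 of the members. The stage medians were 0.07 for glycolysis, 0.06 for the pyruvate genes and 0.05 for the TCA cycle, against -0.004 over all genes tested and 0.02 over the genes at least as high as the lowest member. Single values ran from -0.09 (Suclg2) to 0.13 (Tpi1), with Mdh2 at 0.12, Mdh1 at 0.11 and Idh3g at 0.10, and standard errors from 0.031 to 0.053. Of the 34, 31 (91.2%) were above 0, against 48.6% of all genes and 57.9% of those at least as high, and those below were Pfkp, Pdha1 and Suclg2.

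The fold changes fell with transcript length across the members. Spearman's rho between log2 difference and length over the 34 genes was -0.79 in AAV-SIRT3 against intact, -0.61 in AAV-GFP against intact and -0.52 in AAV-SIRT3 against AAV-GFP, and over 6562 genes expressed at least as highly it was -0.65, -0.53 and -0.52. These are descriptions across genes that share the same libraries. The libraries themselves differed: Spearman's rho between transcript length and the deviation of a gene from its mean was 0.09 to 0.20 in intact libraries, -0.33 to 0.13 in AAV-GFP and -0.33 to -0.01 in AAV-SIRT3, lowest in AAV-GFP replicate 2 and AAV-SIRT3 replicate 6. Those libraries also had the largest share of reads on the glycolytic members in their groups, 1.16% each.

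With the trend with length and GC content removed from each library, 6 members rose in AAV-SIRT3 against intact, against 21.3% of the genes at least as high as the lowest member, and 0 fell. Ldhb (0.18, limma adjusted p = 0.00725), Suclg1 (0.18, adjusted p = 0.00154), Mdh1 (0.22, adjusted p = 0.00334) and Pdhb (0.10, adjusted p = 0.0120) still passed. Dld (0.11, adjusted p = 0.0236) and Sucla2 (0.12, adjusted p = 0.0369) passed newly. Aldoa, Aldoc, Tpi1, Gapdh, Eno1, Idh3g and Mdh2 no longer passed. Of these Aldoc stayed at 0.13 (adjusted p = 0.0630), Tpi1 went to 0.08, Idh3g to 0.08, Mdh2 to 0.07, Eno1 to 0.05, Gapdh to 0.04 and Aldoa to 0.03. The share of members that rose lay near the background in this fit as well. The removal was incomplete among the members: Spearman's rho between log2 difference and length was still -0.43 over the 34 genes. Of the members that still passed, Ldhb (1304 bases), Pdhb (1513) and Suclg1 (1519) have short transcripts, so their calls are not free of length.

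**Figure D4:**
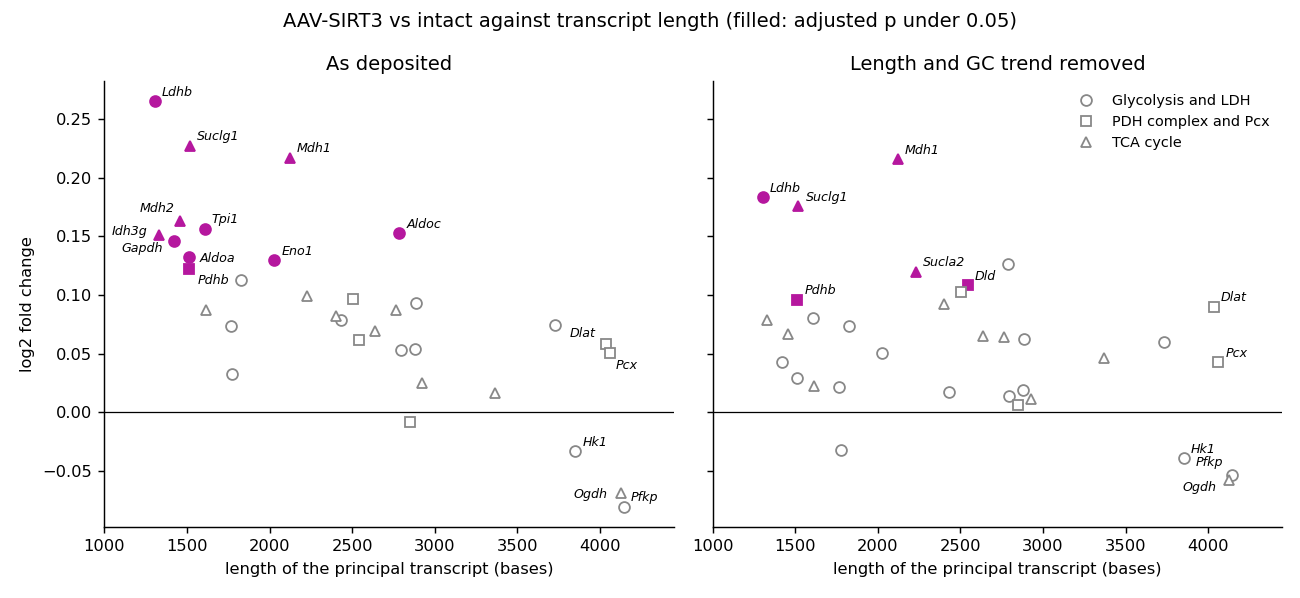
Log2 fold change in AAV-SIRT3 against intact (vertical axis) by length of the principal transcript in bases (horizontal axis) for the 34 members, as deposited (left) and with the length and GC trend of each library removed (right), filled where the adjusted p was under 0.05. On the left the values fall from Ldhb at 0.27 to Pfkp at -0.08 as length grows, and on the right Ldhb, Suclg1, Mdh1 and Pdhb are still filled. A fall with length remains on the right (Spearman's rho -0.43).

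Markers of neighbouring tissue and of other cells moved in the same comparison. Of 10 thalamus markers, 8 were higher in AAV-SIRT3 and 2 in AAV-GFP against intact, and 0 were lower in either. Of all genes, 11.3% rose in AAV-SIRT3 and 0.823% in AAV-GFP against intact. Their summed level was 47511 to 92981 normalised reads in intact libraries, with replicates 1, 3 and 5 at 47511 to 50369, against 78822 to 91462 in AAV-GFP and 75996 to 99856 in AAV-SIRT3. With the thalamus score as a covariate, 4 members passed in AAV-SIRT3 against intact (Gapdh, Ldhb, Suclg1, Mdh1), against 9.3% of the genes at least as high as the lowest member. The log2 differences of those that no longer passed were not smaller for the most part: Aldoc was at 0.21, Mdh2 at 0.20, Tpi1 at 0.18, Idh3g at 0.15, Eno1 at 0.14, Aldoa at 0.14 and Pdhb at 0.11, with limma adjusted p from 0.0509 to 0.145.

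In AAV-SIRT3 against intact, 4 of 8 microglial and 2 of 8 oligodendrocyte markers were higher, 2 of 8 pan-neuronal markers were higher and 1 lower, and 4 of 8 endothelial, 4 of 5 pituitary and 3 of 6 choroid plexus markers were lower. Reactive astrocyte markers had 1 higher and 1 lower of 8, GABAergic neurons 1 higher of 5, and astrocyte (8), dopaminergic (10) and erythroid (4 tested) markers 0 in either direction. Of all genes tested, 11.3% rose and 10.3% fell in this comparison. How the markers stand by transcript length was not examined. In AAV-GFP against intact, 3 of 8 reactive astrocyte, 2 of 8 microglial and 1 of 8 astrocyte markers were higher, and 4 of 5 pituitary markers were lower. In AAV-SIRT3 against AAV-GFP, 2 of 8 reactive astrocyte markers (median log2 difference of the list -0.57) and 1 of 8 microglial markers were lower. Apart from the dopaminergic and thalamus lists above, 0 markers of the remaining lists passed in those comparisons. Of all genes, 0.823% rose and 1.02% fell in AAV-GFP against intact, and 0.036% rose and 0.0772% fell in AAV-SIRT3 against AAV-GFP. Mitochondrially encoded genes took 7.13 to 7.83% of the reads of an intact library, against 7.56 to 8.43% with AAV-GFP and 7.81 to 8.58% with AAV-SIRT3. What these differences contribute to the values of the members was not tested beyond the thalamus covariate.

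Ldhb, Suclg1 and Mdh1 passed in every alternative run for AAV-SIRT3 against intact. By edgeR the same 11 members passed, and by DESeq2, with TMM factors or with a mean minimum of 50 there were 13, Dlst and Gpi1 being added. Leaving out 1 library at a time gave 6 to 17 members past the threshold. The 6 that passed in all 18 of these fits were Ldhb, Tpi1, Pdhb, Idh3g, Suclg1 and Mdh1, while Mdh2 passed in 14, Gapdh in 11, Aldoa in 10, Aldoc in 9 and Eno1 in 7. The count was 17 without intact replicate 1 and 6 without intact replicate 2, intact replicate 3 or AAV-SIRT3 replicate 6, and 7 without intact replicate 4, intact replicate 5 or AAV-SIRT3 replicate 5.

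Other genes of the pathway were read from lists of related isoforms, regulators, transporters and neighbouring enzymes. Of 17 further TCA and anaplerotic genes, 4 rose (23.5%) and 1 fell in AAV-SIRT3 against intact, near the 21.2% that rose among genes at least as high as the lowest member. How the genes of these lists stand by transcript length was not examined. Sdhb (0.16, limma adjusted p = 0.00378), Sdhc (0.13) and Sdhd (0.19) encode 3 subunits of succinate dehydrogenase, the enzyme that the cycle shares with the respiratory chain, while the flavoprotein subunit Sdha was at 0.03 (adjusted p = 0.572). The cytosolic malic enzyme Me1 rose by 0.13, and the mitochondrial Me3 fell by 0.21.

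Of 8 transport genes 2 rose, also near that background of 21.2%. They were Mpc2, a subunit of the mitochondrial pyruvate carrier, by 0.21 (limma adjusted p = 0.00212) and without overlap of the groups, as 5.01% of all genes, and Bsg, the chaperone of the lactate transporters, by 0.13. The partner subunit Mpc1 was at 0.11 (adjusted p = 0.100). Of 12 other glycolytic isoforms tested 1 rose (8.33%), against 11.3% of all genes. It was Bpgm, which makes 2,3-bisphosphoglycerate, by 0.16.

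Of the regulators, 2 of 7 genes of glycolysis control fell and 0 rose, and 1 of 7 genes of pyruvate dehydrogenase control rose and 2 fell, where 11.3% of all genes rose and 10.3% fell. Pfkfb3 and Pfkfb4, which set the fructose 2,6-bisphosphate that drives phosphofructokinase, fell by 0.24 and 0.23 in AAV-SIRT3 against intact (limma adjusted p = 0.00589 and 0.0182). Pfkfb3 was also the only listed gene past the threshold in AAV-GFP against intact, at -0.24 (adjusted p = 0.0351). In pyruvate dehydrogenase control, the phosphatase Pdp1 rose by 0.52 (SE 0.14, adjusted p = 0.0113), the kinase Pdk3 fell by 0.19 and the phosphatase regulatory subunit Pdpr fell by 0.39. Pdp1 had a mean of 8924 ± 2696 normalised reads in the intact group and 12358 ± 1583 with AAV-SIRT3 (SD, n = 6). None of these lists had a gene past the threshold in AAV-SIRT3 against AAV-GFP.

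**Figure D5:**
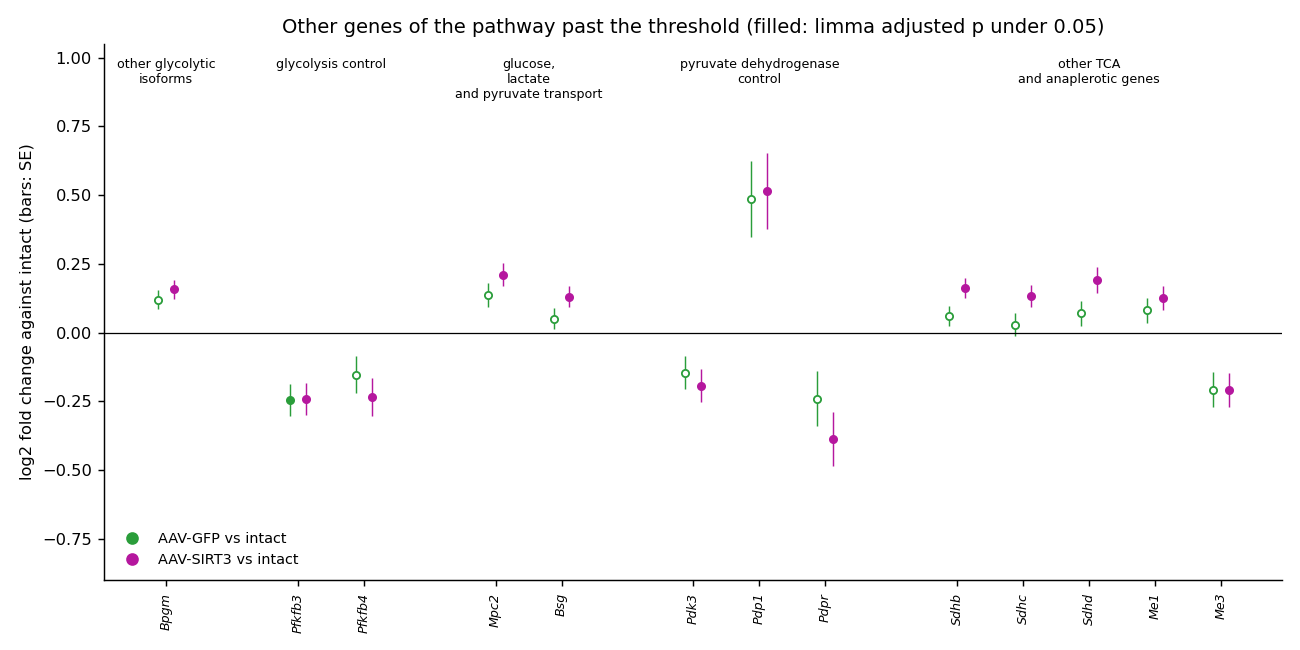
Log2 fold changes against intact (vertical axis, bars for the standard error) of the other listed genes of the pathway that passed the threshold in at least 1 comparison, in AAV-GFP and AAV-SIRT3 libraries, filled where the limma adjusted p was under 0.05. Filled points above 0 include Pdp1 at 0.52, Mpc2 at 0.21 and the Sdhb, Sdhc and Sdhd subunits, and Pdpr at -0.39 and Pfkfb3 at -0.24 are among those below.

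Counting could mix some members with other genes. In GENCODE M21, 11 members share exon positions with another gene, 10 of them with a gene on the opposite strand, and the strand setting of the counting is not given in the sources used here. The partner was small against the member for Gapdh (Iffo1, 3.75% of its mean level), Tpi1 (Spsb2, 0.606%) and Mdh1 (Wdpcp, 0.612%), larger for Pfkp (Pitrm1, 12.9%) and, of those with a level, largest for Idh3b (Nop56, 39.9%). The partners of Aldoa (Fam57b) and Gpi1 (Gm26762), both on the opposite strand, were not found by name among the genes measured, so their levels are unknown. The 17 pseudogenes and near-copies looked up by name, among them Gapdh-ps16, Ldhb-ps and Eno1b, had means of at most 19.0 normalised reads and at most 49.5 in any library.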

How the data were processed

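Per the labels' protocols, poly-A RNA was made into stranded libraries and read in pairs. The deposited table holds a signal per gene and library: HTSeq reads divided by a DESeq2 size factor, per the table's name. HISAT2 2.1.0, DESeq2 1.34.0 and mm10 stand in the submitters' processing notes, and annotation and strand setting are not given in the sources used here. Multiplying by the size factors gave whole reads for 100% of values above 0, though intact 4 and AAV-SIRT3 4, with factors near 1, are a weaker proof. A row with no gene name (at most 0.000289% of a library) was left out.

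Values were transformed to log2(value + 1), which understates changes of low genes. Genes with at least 10 in at least 6 of 18 libraries (19442) entered 1 limma 3.58.1 model of 3 groups (R 4.3.3, 15 residual degrees of freedom), with Benjamini-Hochberg adjustment over all genes within a comparison and a threshold of 0.05. The procedure was tested on simulated counts. Lengths, GC content and positions came from GENCODE M21 (GRCm38) by symbol. Every member is named with its log2 difference in AAV-SIRT3 against intact, while values of the other comparisons are printed for some members only. Genes of the other pathway lists are named where past the threshold or, after their values were seen, as partner subunits of such a gene. Members and lists were chosen with earlier results of these data known. Alternatives were TMM factors, a pseudocount of 10, all genes above 0, a mean minimum of 50, edgeR 4.0.16, DESeq2 1.42.0, 2 groups alone, a replicate block, removal of the length and GC trend, a thalamus covariate and leaving out each library. Leaving out AAV-GFP 2 and AAV-SIRT3 6 together, and the background shares by length class, were chosen after seeing the data. Reads carry no molecular identifiers, so depth speaks to counting error only. All 18 columns matched a sample, and no replicate pair agreed within sampling noise.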

Additional observations from a re-analysis of the deposited data

Results flagged for a closer look

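In groups of 6 libraries, a highest or lowest value was looked at where its gap to the nearest other library exceeded the 95% critical value of Dixon's test for a group of that size, a limit that chance passes in about 1 in 20 groups. Of 135 groups of values, 7 exceeded it, where 6.75 would by chance.

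AAV-GFP replicate 2 stood apart at the top of its group for 3 members: Pdhb at 8007 normalised reads (next 7405), Idh3g at 8459 (next 7878) and Fh1 at 5544 (next 5006). In intact libraries, Dlst was lowest in replicate 3 at 7461 (next 8038), and the log2 ratio of Pfkm to Pfkp was lowest in replicate 1 at 0.304 (next 0.424). Suclg2 was highest in AAV-GFP replicate 3 at 1907 (next 1711). The log2 ratio of Pfkm to Pfkl was lowest in AAV-SIRT3 replicate 5 at 1.81 (next 1.89).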

How the results depend on the processing

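In AAV-SIRT3 against intact, between 4 and 17 members passed the threshold across the alternatives, all higher. The count of 11 became 6 with all genes above 0 and 6 with the length and GC trend removed (4 of them among the 11), 4 with the thalamus covariate, and 6 to 17 on leaving out 1 library. The pyruvate median became 0.0930 with the trend removed. AAV-GFP against intact had 1 member by DESeq2, and 0 to 1 on leaving out 1 library, as had AAV-SIRT3 against AAV-GFP, where the 1 came without AAV-GFP replicate 2.

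Over all genes, AAV-SIRT3 against AAV-GFP (7 higher, 15 lower) gave 310 by DESeq2, 8 with 2 groups alone, 45 with the trend removed, 357 without AAV-GFP 2 and AAV-SIRT3 6 together, and 5 to 861 on leaving out 1 library (861 without AAV-GFP replicate 2, 38 without AAV-GFP replicate 6, and 5 to 12 without AAV-GFP replicate 1, 3, 4 or 5 or AAV-SIRT3 replicate 5). AAV-GFP against intact (160 higher, 198 lower) gave 164 with all genes above 0, 1008 by DESeq2, 199 with 2 groups alone, 35 with the thalamus covariate, 230 without both libraries, and 129 to 686 on leaving out 1 (686 without AAV-GFP replicate 1, over 1.5 times more also without intact replicate 6, and over 1.5 times fewer without intact replicate 3, 4 or 5 or AAV-GFP replicate 2, 3 or 5). AAV-SIRT3 against intact (2206 higher, 2008 lower) gave 1625 with the thalamus covariate. The causes were not tested.

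Replicate numbers did not pair the samples (correlations of same-numbered deviations -0.10 to 0.18). With the replicate block, AAV-SIRT3 against AAV-GFP gave 13 genes, and 10 members passed in AAV-SIRT3 against intact, Aldoc being lost.

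Sirt3 in AAV-SIRT3 against intact turned to -0.00474 with the trend removed, and against AAV-GFP it was 0.11 to 0.15 on leaving out 1 library, passing without AAV-GFP replicate 2. Values near 0 turned sign. With the trend removed these were Pfkp 0.00227, Pdha1 0.000698 in AAV-SIRT3 against AAV-GFP, and Gpi1 -0.0165, Aldoa -0.00226, Tpi1 -0.0180, Pkm -0.00915, Ldha -0.0196, Dlat 0.0109, Idh3b -0.00990, Mdh2 -0.00182 in AAV-GFP against intact, and Pgam1 -0.0320, Pdha1 0.00655 in AAV-SIRT3 against intact. With TMM factors this was Dlat 0.00340 in AAV-GFP against intact. With the thalamus covariate these were Pfkl -0.0288, Pdhx -0.0174 in AAV-GFP against intact, and Hk1 0.00578 in AAV-SIRT3 against intact. Without both libraries these were Gpi1 -0.0110, Pfkl -0.00729, Tpi1 -0.00103, Pkm -0.00756, Ldha -0.00998, Dlat 0.00835 in AAV-GFP against intact, and Pdha1 0.0114 in AAV-SIRT3 against intact.

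On leaving out 1 library, signs also turned for Pfkp (-0.0293 to 0.00846), Pdha1 (-0.0340 to 0.00526), Dld (-0.00399 to 0.0261), Sucla2 (-0.00267 to 0.0367), Fh1 (-0.00194 to 0.0378) in AAV-SIRT3 against AAV-GFP, for Gpi1 (-0.0151 to 0.0140), Pfkl (-0.00987 to 0.0381), Tpi1 (-0.00103 to 0.0447), Pgam1 (-0.0449 to 0.00965), Pkm (-0.00756 to 0.0582), Ldha (-0.00998 to 0.0460), Pdha1 (-0.0104 to 0.0262), Dlat (-0.0210 to 0.0167), Pcx (-0.0396 to 0.000684) in AAV-GFP against intact, for Pdha1 (-0.0250 to 0.0116), Suclg2 (-0.00490 to 0.0346) in AAV-SIRT3 against intact.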
